A study of Solanum lycopersicum with 40 samples.

Results

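The genes described here are APX1 and GPXle-2, which encode peroxide-scavenging enzymes of tomato (Solanum lycopersicum). They were found by the gene symbol that the array platform's annotation gives to its probe sets, short groups of oligonucleotides that report on 1 transcript. Of the 10209 probe sets on the array, 3 carried these symbols: 1 for APX1 and 2 for GPXle-2, of which 1 is bright and 1 is dim. All 3 are reported, and the annotation names 802 genes in all. The pair was chosen by its measured signals, namely by how they differed between transgenic lines and controls in fruit and in leaf. Those differences are therefore given as descriptions, without tests. Tests are given for root tips, for differences between tissues of control plants, for the lines against each other, and for one control against the other.

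Transcripts were measured on 40 Affymetrix tomato arrays in the dwarf cultivar Micro-Tom. Wild type (WT), a vector control (VC) and the transgenic lines N6 and N7, both of which express an introduced InsP 5-ptase gene, were each profiled in 3 tissues. InsP 5-ptase is a phosphatase that acts on inositol phosphates, including the calcium-releasing second messenger. For ripe fruit there were 4 arrays per genotype, from plants kept for 9 weeks in a growth chamber. The first leaves of light-grown seedlings aged 10 days, and root tips of seedlings of the same age, gave 3 arrays per genotype each. The labels call the root tip seedlings etiolated while their growth protocol describes light, so the light conditions of the roots are not settled. No treatment was applied before harvest. The sources used here give neither the promoter of the introduced gene nor whether a line descends from a single transformant. Only the fruit titles call the replicates biological, so in leaf and root tip the p-values measure the spread between samples that may be technical replicates.

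Ascorbate peroxidases reduce hydrogen peroxide to water with electrons from ascorbate, which is then recycled by monodehydroascorbate and dehydroascorbate reductases at the expense of NADPH and glutathione. Plant glutathione peroxidases reduce hydrogen peroxide and lipid hydroperoxides, and many of them take their electrons from thioredoxin rather than from glutathione. Both enzyme families keep peroxides low beside catalases, which need no reductant. Superoxide dismutases feed these enzymes by turning superoxide into hydrogen peroxide.

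Signals are linear Affymetrix intensities in arbitrary units, scaled so that the trimmed mean of every array is 500, and values under a floor of 50 were set to 50 before log2 was taken. Differences in level are taken between samples for 1 probe set, and levels of different genes are not compared. Brightness was compared between the probe sets of a gene only to tell them apart and to choose 1 for each listed gene. Arrays of a group correlated at 0.93 to 0.996, and no arrays were identical. Lists of fruit, leaf and root marker genes were highest in their own tissue for 5 of 5, 5 of 5 and 6 of 6 genes. In fruit, WT replicate 3 and VC replicate 4 stood apart, with a mean correlation to their own group of 0.939 and 0.944, against 0.97 to 0.992 for the other fruit arrays. A reporter control probe set on the array lay above the floor in the lines in leaf and root tip and in fruit N7, but averaged 12.17 ± 8.22 (SD, n = 4) in fruit N6. A second reporter probe set reached 1198 to 4416 on the 4 fruit WT arrays and 5161 on fruit VC replicate 4, against at most 10.14 on the other fruit VC arrays. The sources used here do not name what these reporters detect, so the fruit groups are named as labelled and fruit differences are also given for subsets.

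GPXle-2 encodes a glutathione peroxidase. Its signal in lines N6 and N7 lay on opposite sides of the controls in leaf and in fruit. In leaf the lines averaged 745.2 ± 259 (SD, n = 6) against 2035 ± 153 in the controls (n = 6), a log2 difference of −1.53 ± 0.20 (SE), or 2.88-fold lower. In fruit the lines averaged 2336 ± 274 (SD, n = 8) against 1642 ± 316 in the controls (n = 8), a log2 difference of 0.52 ± 0.12 (SE), or 1.44-fold higher. In root tips the lines averaged 2708 ± 255 and the controls 2306 ± 456 (SD, n = 6 each), a difference that did not pass the test. These values are those of the bright probe set.

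In leaf, the WT arrays of GPXle-2 read 2050, 1921 and 1950, and the VC arrays 2126, 2287 and 1877. The N6 arrays read 802.6, 756.5 and 919.8, and the N7 arrays 485.2, 411.2 and 1096. Every line array was therefore below every control array, and N7 replicate 3 was the line array nearest to the controls. Of the 6535 probe sets tested in leaf, 3.15% had all line arrays below all control arrays, and 18.4% were called between lines and controls at an adjusted p under 0.05 (limma, Benjamini-Hochberg). Against the vector control alone, where 10.6% of leaf probe sets were called for N6 and 7.07% for N7, the leaf signal was 2.54-fold lower in N6 and 3.47-fold lower in N7. The 6 line arrays lay between 0.89 and 2.3 log2 units below the control mean.

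The lines did not pass the test against each other in leaf, with N7 minus N6 at −0.45 ± 0.28 on the log2 scale (95% interval −1.06 to 0.16, limma adjusted p = 0.324). That result rests on N7 replicate 3: without it the difference was −0.88, with an adjusted p of 0.00549 from the same limma fit. The mean correlation of this array with its own group was 0.972, below the 0.977 to 0.992 of the other leaf arrays. Of all probe sets tested in leaf, 4.48% (293) were called between the lines, a count that ranged from 69 to 709 when 1 array was left out at a time. The controls differed by 0.08 in leaf (VC minus WT, limma adjusted p = 1), where 0.0153% of probe sets were called.

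In fruit, the WT arrays of GPXle-2 read 1333, 1761, 1753 and 1888, and the VC arrays 1535, 1434, 1239 and 2192. The N6 arrays read 1866, 2557, 2181 and 2611, and the N7 arrays 2246, 2305, 2703 and 2218. The ranges overlapped: N6 replicate 1 lay below WT replicate 4, and VC replicate 4 lay above N6 replicates 1 and 3. Each of the 8 line arrays was above the control mean, by 0.21 to 0.74 log2 units. For comparison, 31.1% of the 6208 probe sets tested in fruit were called between lines and controls, and 16.6% were called as higher in the lines.

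The fruit difference of GPXle-2 was 0.62 without WT replicate 3 and VC replicate 4, and 0.76 for N7 against VC replicates 1 to 3 alone. Each line lay above the vector control by a similar amount, 0.55 for N6 and 0.59 for N7. N7 minus N6 was 0.05 ± 0.17 (95% interval −0.30 to 0.40, limma adjusted p = 0.945), and 2.9% of fruit probe sets (180) were called between the lines, or 83 to 286 with 1 array left out at a time. VC minus WT was −0.09 (limma adjusted p = 0.96). Between the fruit controls limma called 0% of probe sets, while 331 had an unadjusted p under 0.05. That count of 0 became 21 without WT replicate 3 and VC replicate 4, and 1316 with array weights.

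In root tips, the WT arrays of GPXle-2 read 2682, 2403 and 1669, and the VC arrays 2834, 2385 and 1861. The N6 arrays read 2937, 2906 and 2958, and the N7 arrays 2408, 2596 and 2445. The 3 N6 arrays were above all control arrays, whereas N7 fell within the range of the controls. The share of all probe sets with N6 apart in this way was not counted. Lines minus controls was 0.25 ± 0.13 (95% interval −0.02 to 0.53), with an unadjusted p of 0.0697 and a limma adjusted p of 0.423, and each of the 6 line arrays was above the control mean. The interval includes 0 and also the size of the fruit difference. Of the 6495 probe sets tested in root tips, 0.508% were called.

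For each line, N6 minus VC in root tips was 0.34 (limma adjusted p = 0.631) and N7 minus VC was 0.09 (limma adjusted p = 0.998). The lines differed by −0.24 ± 0.18 (N7 minus N6, limma adjusted p = 1). Their ranges did not overlap, but the share of all probe sets with lines apart in this way was not counted. The controls differed by 0.08 (VC minus WT, limma adjusted p = 1). In these root tip contrasts limma called 0% of probe sets for N6 minus VC, 0.154% for N7 minus VC, 0.0462% for N7 minus N6 and 0% for VC minus WT. At an unadjusted p under 0.05, the contrasts with no call had 563 probe sets for N6 minus VC and 60 for VC minus WT.

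**Figure D1:**
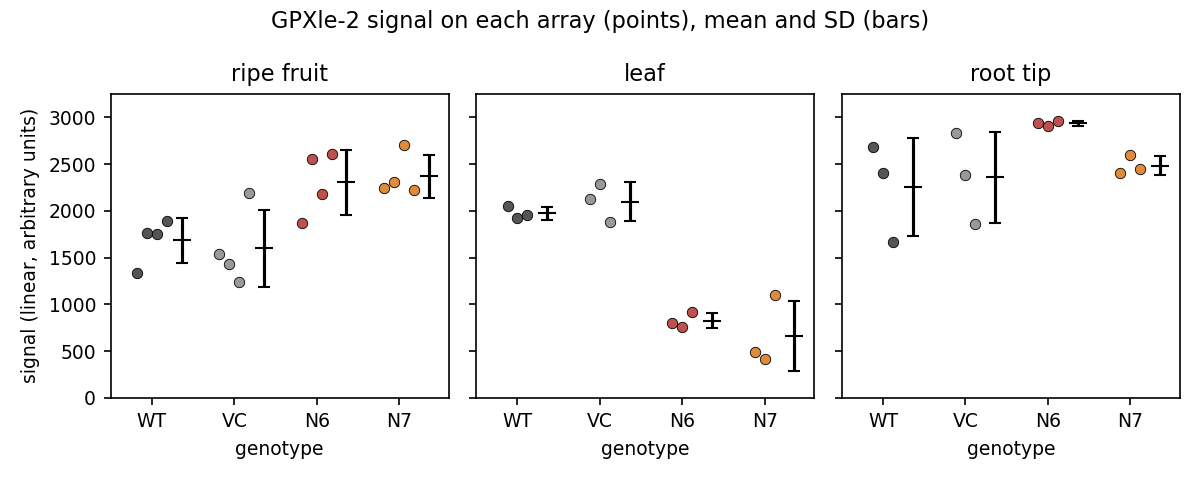
GPXle-2 signal (linear, arbitrary units, axis from 0) of the bright probe set for WT, VC, N6 and N7 in ripe fruit, leaf and root tip. Points are arrays, and bars are the mean and SD of each genotype (n = 4 in fruit, n = 3 in leaf and root tip). The leaf lines lie between 411.2 and 1096, below all leaf controls (1877 to 2287), while in fruit the lines lie mostly above the controls.

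Among the control plants, the tissue differences of GPXle-2 were at most 1.40-fold. Fruit controls were 1.40-fold below root tip controls (log2 difference −0.49 ± 0.15, limma adjusted p = 0.00551 in a fit of all 40 arrays). Fruit minus leaf was −0.33 ± 0.15 (limma adjusted p = 0.0573) and leaf minus root tip was −0.16 ± 0.16 (limma adjusted p = 0.406), neither of which passed. The fruit and root tip difference passed neither when arrays were scaled to equal medians (−0.15, limma adjusted p = 0.5) nor with WT alone (−0.40, limma adjusted p = 0.112). Most probe sets differed between control tissues: 66.5% were called for fruit against leaf, 66.8% for fruit against root tip and 69.9% for leaf against root tip, so a call there is the common case. Fruit minus leaf passed without fruit WT replicate 4 (−0.36), fruit VC replicate 4 (−0.41) or root tip WT replicate 3 (−0.33), each left out in turn. It also passed with quantile normalisation (−0.41), array weights (−0.37), a replicate block (−0.39, limma adjusted p = 0.0309) and without both fruit WT replicate 3 and VC replicate 4 (−0.42), which makes 7 of the 31 alternatives run.

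Ordered by mean over the 12 groups, GPXle-2 was highest in root tips of N6 (2934 ± 25.7, SD, n = 3) and lowest in leaves of N7 (664.1 ± 376, n = 3). Of the 11 steps between neighbours in this order, 3 had ranges that did not overlap. They were root tip N6 above root tip N7 (2483 ± 99.7), leaf WT (1974 ± 67.9) above fruit WT (1684 ± 242), and fruit VC (1600 ± 413) above leaf N6 (826.3 ± 84.2). The other neighbours could not be ordered beyond their spread. How often neighbouring groups of other probe sets have ranges that do not overlap was not counted. The leaves of the lines, at 826.3 in N6 and 664.1 in N7, were the only groups with a mean below that of fruit VC.

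The dim probe set of GPXle-2 stayed near or under the floor and carried no usable comparison. In fruit it ranged from 22.55 to 57.89 in the controls and from 35.58 to 63.2 in the lines. In leaf it ranged from 18.23 to 57.41 in the controls and from 20.62 to 30.09 in the lines, and it was not tested there. In root tips it ranged from 10.13 to 76.71 in the controls and from 31.81 to 75.77 in the lines. Its lines minus controls difference in root tips was −0.01 ± 0.16 (limma adjusted p = 0.987). Before the floor, its means in controls and lines were 37.65 and 47.99 in fruit, 40.02 and 24.08 in leaf, and 48.6 and 50.87 in root tips. The sources used here do not say which strand each GPXle-2 probe set targets. The pattern above is that of the bright one, and the dim one is too near the floor to show whether it shares it.

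APX1 encodes an ascorbate peroxidase. Its signal was dim, at 54.8 to 219.7 across the 40 arrays, and was lower in the lines than in the controls in both fruit and leaf. In fruit the lines averaged 80.71 ± 22.7 (SD, n = 8) against 126.5 ± 34.8 in the controls (n = 8), a log2 difference of −0.66 ± 0.20 (SE), or 1.58-fold lower. In leaf the lines averaged 82.2 ± 16.6 (SD, n = 6) against 124.9 ± 12.8 (n = 6), a log2 difference of −0.62 ± 0.14 (SE), or 1.54-fold lower. In root tips the means were 94.72 ± 40.1 in the lines and 100.9 ± 60 in the controls (SD, n = 6 each), with no difference that passed the test.

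In fruit, the WT arrays of APX1 read 109, 133.3, 104.6 and 111.1, and the VC arrays 89.69, 110, 194.6 and 160. The N6 arrays read 55.64, 90.72, 106 and 93.32, and the N7 arrays 54.8, 66.82, 112.2 and 66.17. Each of the 8 line arrays was below the control mean, by 0.13 to 1.16 log2 units, but the ranges overlapped between 89.69 and 112.2. Replicate 3 was the highest array of VC, N6 and N7, and the lowest of WT. For comparison, 14.5% of the probe sets tested in fruit were called as lower in the lines.

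The fruit difference of APX1 was −0.63 without WT replicate 3 and VC replicate 4, and −0.78 for N7 against VC replicates 1 to 3 alone. Against the vector control, N6 lay at −0.66 and N7 at −0.87. N7 minus N6 was −0.22 ± 0.28 (95% interval −0.80 to 0.37, limma adjusted p = 0.791) and VC minus WT was 0.22 ± 0.28 (limma adjusted p = 0.954). The interval between the lines is wide beside the difference from the controls.

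In leaf, the WT arrays of APX1 read 136.2, 131 and 138.9, and the VC arrays 114.1, 122.6 and 106.4. The N6 arrays read 63.65, 63.17 and 101.4, and the N7 arrays 85.86, 99.05 and 80.04. Every line array was below every control array, with N6 replicate 3 at 101.4 close to VC replicate 3 at 106.4. The same separation was found for 3.15% of leaf probe sets, and 8.58% were called as lower in the lines. The size of this difference depends on the floor, falling to −0.31 with a floor of 100, which lies above most of the line arrays.

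Against the vector control in leaf, APX1 lay at −0.62 in N6 and −0.38 in N7. N7 minus N6 was 0.25 ± 0.19 (95% interval −0.17 to 0.67, limma adjusted p = 0.435). VC minus WT was −0.25 ± 0.19 (limma adjusted p = 0.991), and the 3 VC arrays were all below the 3 WT arrays. The share of all probe sets with the controls apart in this way was not counted. Unlike GPXle-2, APX1 was not lowest in N7 replicates 1 and 2 in leaf.

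In root tips, the WT arrays of APX1 read 63.2, 63.54 and 95.57, and the VC arrays 69.33, 219.7 and 94.02. The N6 arrays read 160.7, 122.3 and 58.19, and the N7 arrays 93.89, 67.1 and 66.06. The genotypes overlapped, with VC replicate 2 the highest of all 40 arrays. Lines minus controls was −0.03 ± 0.31 (95% interval −0.70 to 0.63, limma adjusted p = 0.971), with 3 line arrays above and 3 below the control mean. This interval includes a decrease of the size seen in fruit and leaf.

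In the root tip pairs, N6 minus VC was −0.11 (limma adjusted p = 0.962) and N7 minus VC was −0.59 (limma adjusted p = 0.998) for APX1. N7 minus N6 was −0.49 ± 0.43 and VC minus WT was 0.63 ± 0.43, each with a limma adjusted p of 1. Without VC replicate 2, lines minus controls was 0.21 instead of −0.03.

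**Figure D2:**
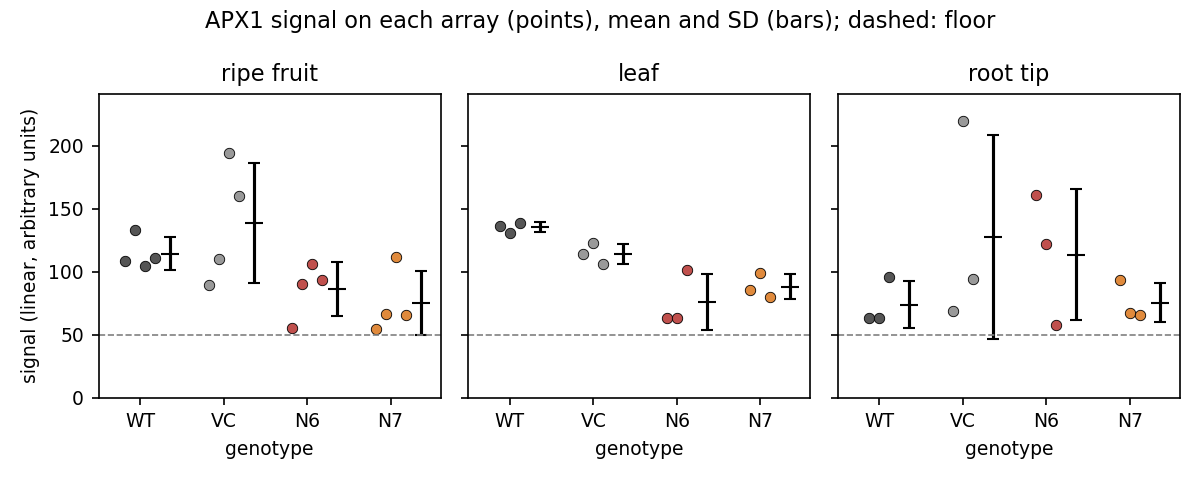
APX1 signal (linear, arbitrary units, axis from 0) for WT, VC, N6 and N7 in ripe fruit, leaf and root tip. Points are arrays, bars are the mean and SD of each genotype (n = 4 in fruit, n = 3 in leaf and root tip), and the dashed line is the floor of 50. Leaf lines lie at 63.17 to 101.4, below the leaf controls at 106.4 to 138.9, whereas root tip genotypes overlap.

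No difference of APX1 between control tissues passed the test in the fit of all 40 arrays. Fruit minus leaf was −0.02 ± 0.23 (95% interval −0.48 to 0.45, limma adjusted p = 0.998). Fruit minus root tip was 0.44 ± 0.23 (limma adjusted p = 0.0881) and leaf minus root tip was 0.46 ± 0.24 (limma adjusted p = 0.0938). The last pair of results rests on root tip VC replicate 2. Without it fruit minus root tip was 0.68 (limma adjusted p = 0.00615) and leaf minus root tip was 0.70 (limma adjusted p = 0.00744). Fruit minus root tip also passed without fruit VC replicate 1 (0.53) or root tip WT replicate 3 (0.54, with an adjusted p that rounds to 0.05), and when arrays were scaled to equal medians (0.78) or quantile normalised (0.74).

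In the order of the 12 group means, APX1 was highest in fruit of VC (138.6 ± 47.6, SD, n = 4) and leaf of WT (135.4 ± 4.04, n = 3), and lowest in root tips of WT (74.1 ± 18.6, n = 3). None of the 11 neighbouring pairs in this order had ranges that did not overlap. Fruit N7 (74.99 ± 25.4, n = 4), root tip N7 (75.68 ± 15.8, n = 3) and leaf N6 (76.08 ± 21.9, n = 3) were near the lowest level.

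The 3′/5′ ratio of the control transcripts on the array, a sign of RNA quality and labelling, was on average lower in fruit lines than in fruit controls. Its log2 mean was 3.85 in fruit controls and 3.42 in fruit lines, 4.43 and 4.29 in leaf, and 2.85 and 2.97 in root tips. The fruit ranges overlapped, at 2.67 to 4.52 in the controls and 2.88 to 4.04 in the lines. By genotype the fruit means were 3.67 in WT, 4.03 in VC, 3.63 in N6 and 3.2 in N7. The ratio differed more between tissues than between lines and controls, and it was not a covariate in the fit of control tissues. With this ratio as a covariate the fruit differences were 0.47 for GPXle-2 and −0.59 for APX1, and the leaf differences −1.47 and −0.54. These are bulk tissues, so fewer cells of a type and less RNA per cell cannot be told apart.

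Tomato carries further members of both families on the array. GPXle-1 encodes another glutathione peroxidase, APX2 an ascorbate peroxidase close in name and position to APX1, and a probe set with the symbol APX was also present. In the RefSeq genes of assembly SLM_r2.1, APX1 lies on chromosome 6 between APX2 and MPK3, a mitogen-activated protein kinase gene, and GPXle-2 lies on chromosome 12. The APX1 and APX2 probe sets share the stem of their names, and whether their probes also bind the other transcript was not tested.

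The mean of GPXle-1 over both lines fell in fruit, and the lines were uneven. It went from 4928 ± 290 in the controls to 4287 ± 493 in the lines (SD, n = 8 each), a log2 difference of −0.21 ± 0.07 (limma adjusted p = 0.0284). Against the vector control, where 17.5% of fruit probe sets were called for N6 and 22.1% for N7, GPXle-1 passed in N7 at −0.33 ± 0.10 (limma adjusted p = 0.0204) but not in N6 at −0.13 ± 0.10 (limma adjusted p = 0.407). N7 minus N6 was −0.21 (limma adjusted p = 0.287), so a difference between the lines was not shown. Its pooled differences of −0.25 ± 0.09 in leaf (limma adjusted p = 0.0685) and −0.02 in root tips (limma adjusted p = 0.919) did not pass. In leaf, GPXle-1 fell in N6 against VC, by 0.49 on the log2 scale (limma adjusted p = 0.0269), whereas N7 minus VC was −0.18 (limma adjusted p = 0.422) and N7 minus N6 was 0.31 (limma adjusted p = 0.155). Between control tissues, GPXle-1 was 3.28-fold higher in fruit than in leaf (limma adjusted p = 2.48e-21) and 2.97-fold lower in leaf than in root tip (limma adjusted p = 2.01e-19), whereas GPXle-2 passed neither of those contrasts.

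APX2 was not called between lines and controls by either of its probe sets. The brighter one gave −0.22 in fruit, −0.05 in leaf and −0.16 in root tips (limma adjusted p = 0.218, 0.743 and 0.595). The other gave 0.13, −0.29 and −0.41 (limma adjusted p = 0.631, 0.196 and 0.109). Between control tissues the brighter probe set of APX2 was higher in fruit than in leaf by 0.46 (limma adjusted p = 0.00163) and lower in leaf than in root tip by 0.93 (log2 difference −0.93, limma adjusted p = 1.83e-07).

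The probe set APX was a leaf signal, at 1085 ± 361 in leaf controls (SD, n = 6) against 28.7 ± 4.84 in fruit controls (n = 8) and 46.38 ± 20.9 in root tip controls (n = 6), which are under or around the floor. In leaf its difference between lines and controls was −0.45 ± 0.24 (limma adjusted p = 0.213). N6 minus VC was −0.99 ± 0.34 (limma adjusted p = 0.0852), N7 minus VC was −0.02 (limma adjusted p = 0.989), and the difference N7 minus N6 of 0.97 ± 0.34 had a limma adjusted p of 0.116.

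**Figure D3:**
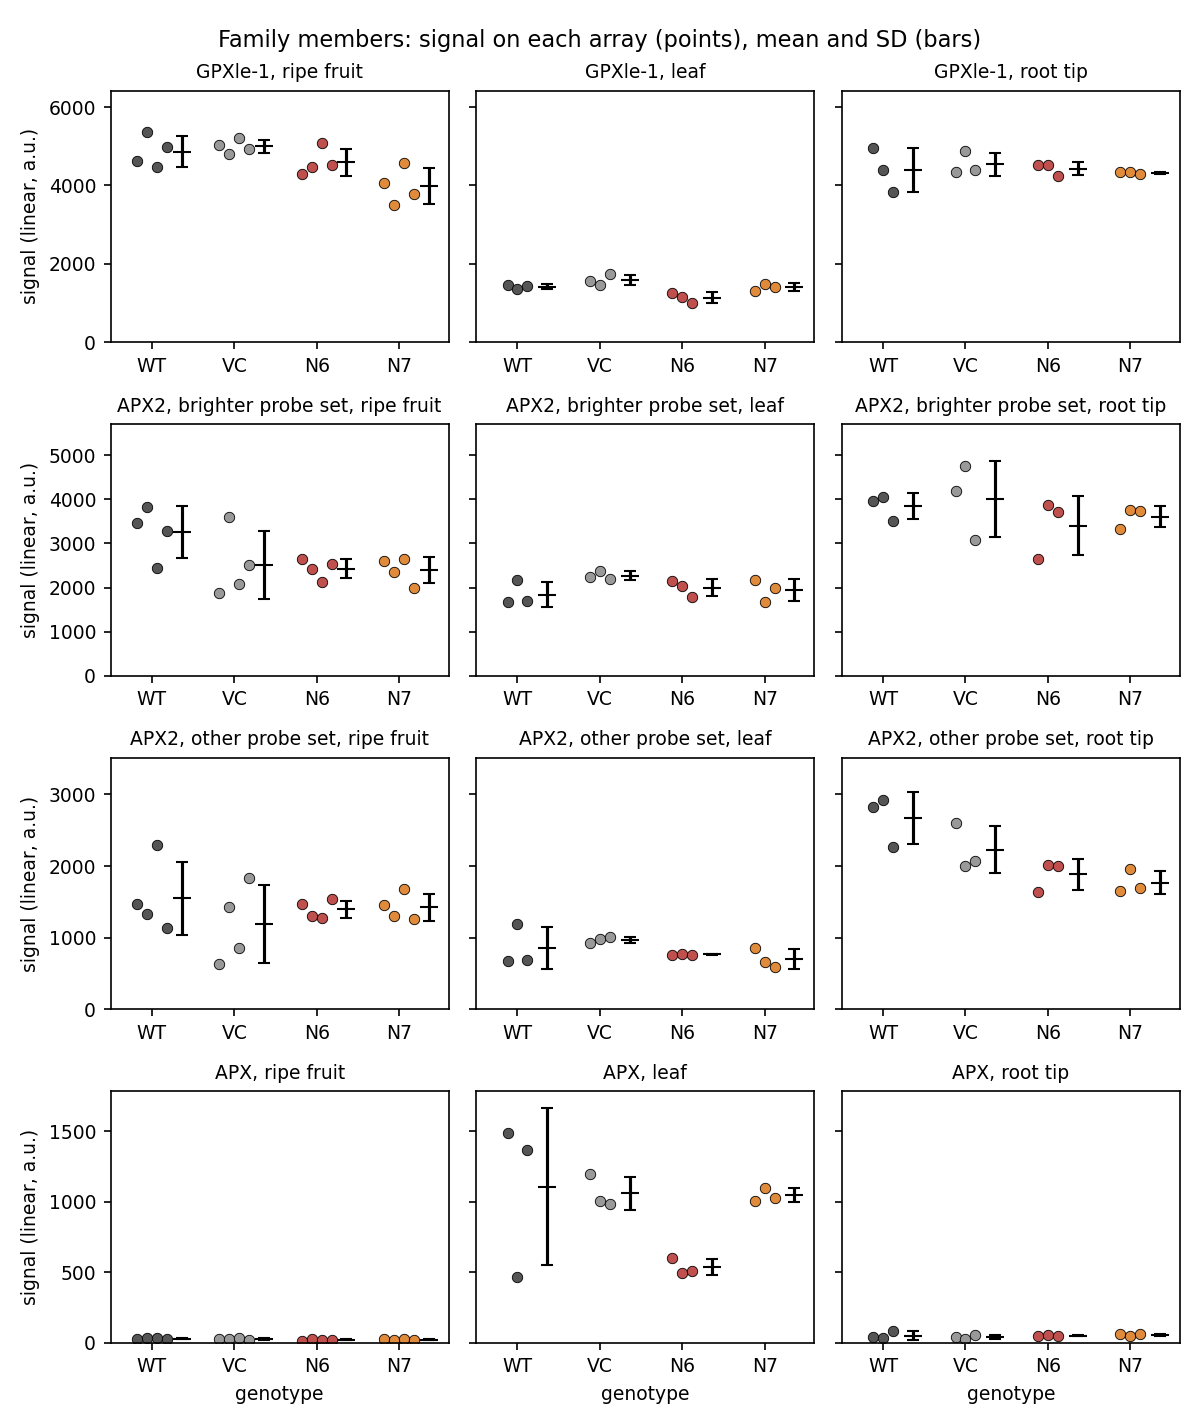
Signal (linear, arbitrary units, each row from 0) of the other glutathione peroxidase and ascorbate peroxidase probe sets for WT, VC, N6 and N7 in ripe fruit, leaf and root tip. Points are arrays, and bars are the mean and SD of each genotype (n = 4 in fruit, n = 3 in leaf and root tip). GPXle-1 is lower in leaf (1504 in controls) than in fruit (4928) and root tip (4462), and APX is low outside leaf (28.7 in fruit controls).

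APX1 and GPXle-2 were set beside 24 further genes of peroxide metabolism that carry a symbol on the array. In fruit, 19 of the 24 were measured, of which 0 rose and 3 fell between lines and controls (limma). At an unadjusted p under 0.05, 0 were higher and 7 lower. That is 15.8% called, against 31.1% of all fruit probe sets. The median log2 difference was −0.11, against 0.04 over all probe sets. In leaf, 22 were measured, 1 rose and 1 fell, or 9.09% against 18.4%, with a median of −0.15 against 0.01. At an unadjusted p under 0.05, 1 was higher and 6 were lower in leaf. In root tips, 23 were measured and limma called none, with 0 higher and 2 lower at an unadjusted p under 0.05, and a median of −0.10 against −0.02.

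By role, the 3 genes that fell in fruit were GPXle-1, GSH2 and CITRX. GSH2, for glutathione synthetase, differed by −0.39 ± 0.12 (limma adjusted p = 0.0194). CITRX, a thioredoxin known for its interaction with a tomato resistance protein, differed by −0.35 ± 0.10 (limma adjusted p = 0.0117). For the mean of both lines against VC alone, none of the 3 was called. By single line, CITRX passed in N6 (N6 minus VC −0.48, limma adjusted p = 0.0238) but not in N7 (−0.18, limma adjusted p = 0.369), and GSH2 in neither (−0.38 and −0.23, limma adjusted p = 0.138 and 0.351). The catalase CAT2 was the lowest in fruit at −0.40 (limma adjusted p = 0.0553). The highest in fruit were AOX1a at 0.27 (limma adjusted p = 0.373), which encodes an alternative oxidase of mitochondria, and GMP at 0.22 (limma adjusted p = 0.385), a gene of ascorbate synthesis.

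In leaf, the gene called as higher was AOX1a, at 1.47 ± 0.45 on the log2 scale or 2.78-fold (limma adjusted p = 0.0395). Its line arrays read 107.6 to 667.9 and its control arrays 62.15 to 136.8, so they overlapped. That call was lost when any of 10 of the 12 leaf arrays was left out, all but N6 replicate 3 and N7 replicate 3. It was also lost with a floor of 100, without the filter, with quantile normalisation and with the 3′/5′ covariate.

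The gene that fell in leaf was SODCP.2, a copper/zinc superoxide dismutase of the chloroplast, by 1.94-fold (log2 difference −0.96 ± 0.25, limma adjusted p = 0.0215). Its WT arrays read 5071, 2785 and 4875, its VC arrays 4365, 4020 and 4293, its N6 arrays 1220, 766.9 and 2352, and its N7 arrays 3668, 2596 and 4625. All N6 arrays were below all controls, a separation not counted over all probe sets, whereas N7 overlapped the controls. N6 minus VC was −1.70 ± 0.36 (limma adjusted p = 0.0119), N7 minus VC was −0.26 ± 0.36 (limma adjusted p = 0.723), and N7 minus N6 was 1.44 ± 0.36 (limma adjusted p = 0.0441). The pooled call of SODCP.2 was lost without the filter and without WT replicate 3, VC replicate 1 or N7 replicate 2. Neither AOX1a nor SODCP.2 was called for the mean of both lines against VC alone or WT alone.

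The glutathione transferase gene ctu1 was next lowest in leaf at −0.53 (limma adjusted p = 0.154). FESOD, for an iron superoxide dismutase, was next highest at 0.71 by the probe set that is brighter over all arrays (limma adjusted p = 0.326). Its other probe set differed by −1.0 in fruit (limma adjusted p = 0.00012) and 1.19 in leaf (limma adjusted p = 0.00607), so the FESOD probe sets disagree on the call. In leaf that other probe set was the brighter one.

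In root tips, the highest differences were those of FESOD at 0.48 (limma adjusted p = 0.585) and CITRX at 0.34 (limma adjusted p = 0.436). The lowest were those of AOX1a at −0.55 (limma adjusted p = 0.368) and RBOH1 at −0.50 (limma adjusted p = 0.424), a respiratory burst oxidase that makes superoxide. FESOD averaged 26.44 ± 21.6 (SD) in the root tip controls, under the floor, and 77.31 ± 87.7 in the lines. The size of its root tip difference therefore depends on the floor. In none of the 3 tissues was a gene of ascorbate recycling (MDHAR, DHAR1 and DHAR2) or of ascorbate synthesis (GMP and GLDH) called, and the same held for the catalases cat1 and CAT2. For MDHAR the controls and lines averaged 42.03 and 41.28 in fruit and 45.43 and 52.88 in leaf. These means lie around the floor, so the lack of a call there says little.

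**Figure D4:**
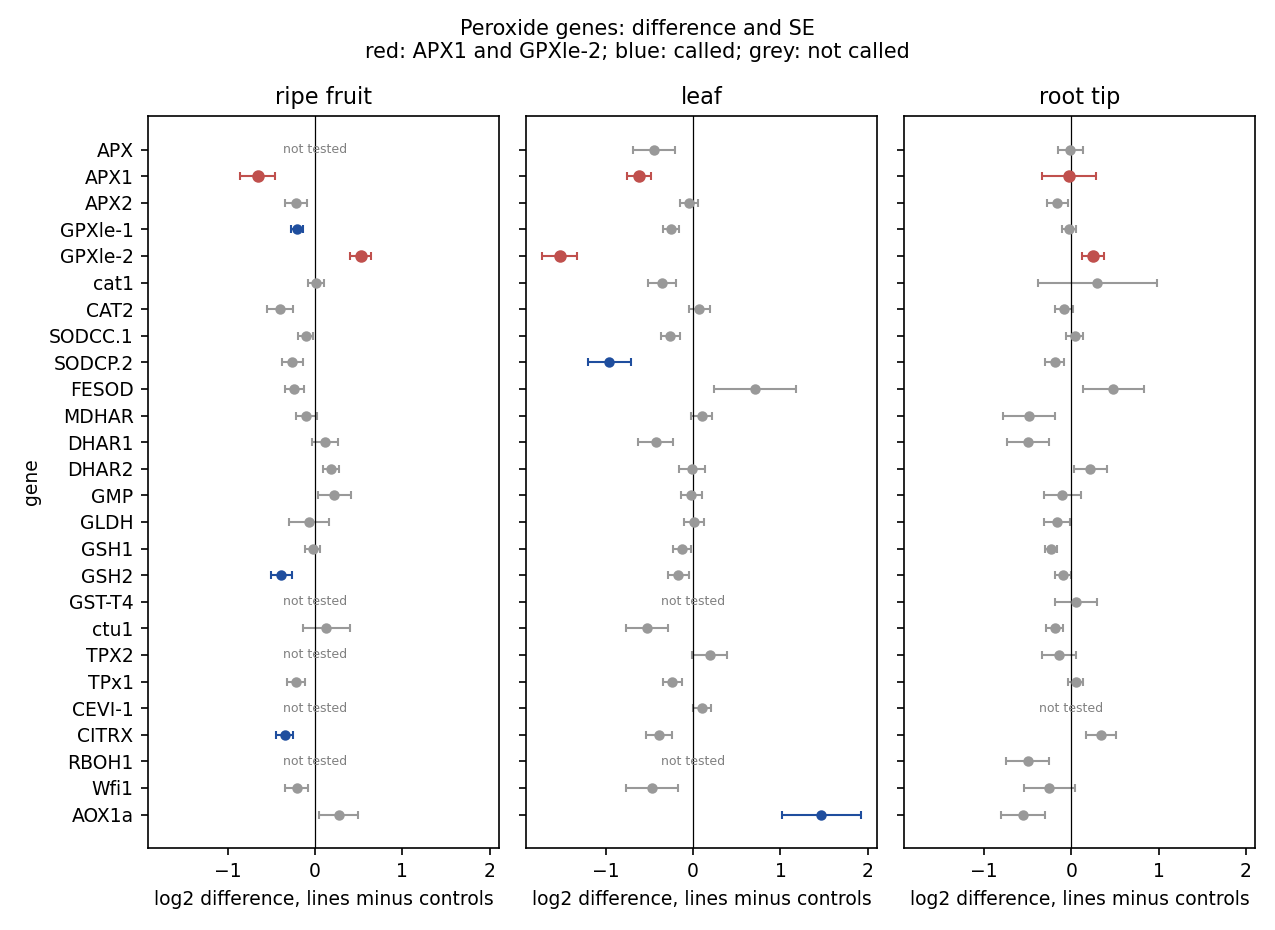
Log2 difference of lines minus controls with its SE for the genes of the peroxide list, in ripe fruit, leaf and root tip. Red marks APX1 and GPXle-2, blue marks other genes with a limma adjusted p under 0.05, and grey marks genes that were not called. GPXle-2 stands at −1.53 in leaf and 0.52 in fruit, and AOX1a at 1.47 in leaf.

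Patterns like that of GPXle-2 were sought among 745 probe sets with a gene symbol, keeping for each gene the probe set with the highest r. Over the 12 group means the most alike were VPE5 (r = 0.93), FKBP12 (0.88), app1 (0.84), ST3 (0.84) and LOC544263 (0.84). VPE5 takes its name from vacuolar processing enzymes, which are proteases, and FKBP12 from a family of immunophilins. Over the 40 arrays, as deviations from each tissue's mean, the highest correlations were those of VPE5 (0.86), LOC543937 (0.85), ST3 (0.83), Sip1 (0.75) and LOC544223 (0.73). LOC544223 was at the floor on every fruit and root tip array, so its value rests on the 12 leaf arrays. These correlations describe likeness only, since the arrays share their scaling and the lines and controls form separate groups in leaf.

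For VPE5, LOC543937, app1 and ST3, the likeness to GPXle-2 was highest in leaf. Within the 12 leaf arrays, r was 0.93, 0.95, 0.94 and 0.93, in that order. Within the 16 fruit arrays the values were 0.75, 0.85, 0.76 and 0.47, and within the 12 root tip arrays 0.43, 0.46, 0.51 and 0.79. FKBP12 resembled GPXle-2 in leaf (0.85) but not in fruit (−0.22) or root tip (0.05).

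The leaf arrays of VPE5 read 2523, 1923 and 2533 in WT, 2674, 2913 and 4505 in VC, 1051, 1441 and 1078 in N6, and 541.2, 417.8 and 2084 in N7. N7 replicate 3 lay among the controls for VPE5, and it was likewise the line array nearest to them for ST3 (593.2, against 287 to 329.5 on the other line arrays) and LOC543937 (4054, against 2088 to 3378). For AOX1a it was the lowest line array, at 107.6. What sets this array apart was not tested.

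**Figure D5:**
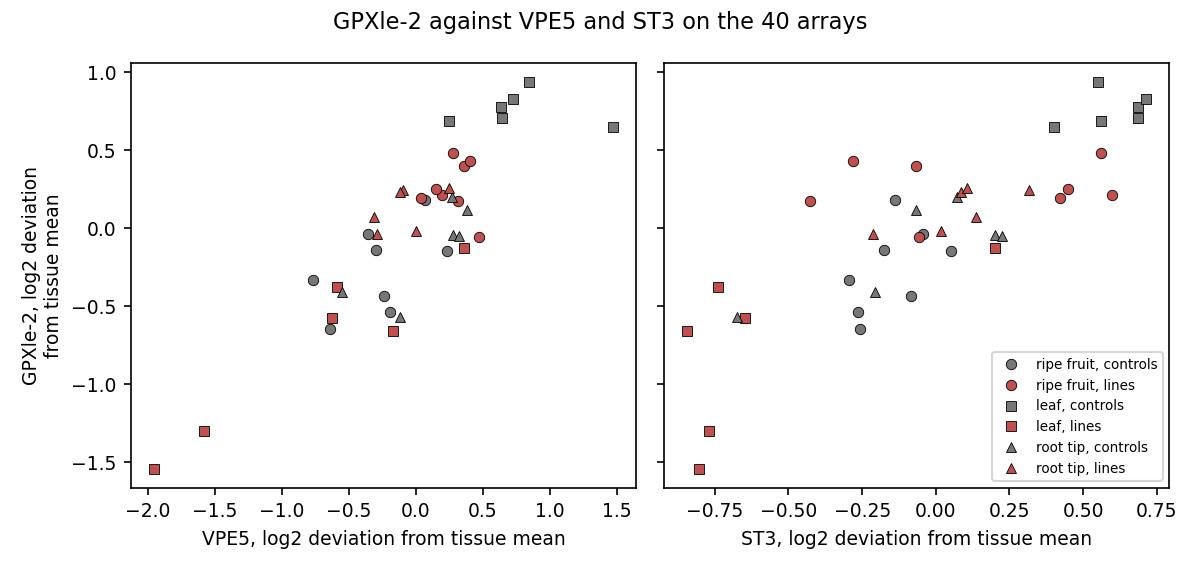
Deviation of log2 signal from the tissue mean on the 40 arrays, GPXle-2 on the vertical axis against VPE5 (left) and ST3 (right) on the horizontal axis. Circles are ripe fruit, squares leaf and triangles root tip, with controls in grey and lines in red. Leaf spans the widest range on both axes, and the correlation over all points is 0.86 for VPE5 and 0.83 for ST3.

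For APX1 the likeness was weaker. Over the 12 group means the closest were AGAL (r = 0.66), TPSI1 (0.62), LOC544050 (0.59), AGP-1 (0.54) and RNALE (0.53). AGAL stands for an alpha-galactosidase, AGP-1 for an arabinogalactan protein, and TPSI1 and RNALE are known in tomato as genes induced when phosphate is scarce. Over the deviations of 40 arrays the closest were LOC544138 (0.71), TPx1 (0.67), ACI36 (0.61), LOC544050 (0.61) and SODCC.1 (0.59), the last a copper/zinc superoxide dismutase of the cytosol.

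The likeness of LOC544138 to APX1 was uneven, with r of 0.96 within root tips, 0.64 within fruit and 0.32 within leaf. TPx1 held 0.74 in fruit, 0.56 in leaf and 0.75 in root tip, and SODCC.1 held 0.63, 0.56 and 0.74. No gene appeared on the lists of both APX1 and GPXle-2.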

How the data were processed

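Total RNA of 40 samples was labelled with biotin and hybridised to 1 Affymetrix tomato array each. The deposited values are linear signal intensities per probe set, made with GCOS per the submitters' processing notes. The sources used here state no version, scaling target or detection call. Each array had a trimmed mean of 500 after 2% was left out at each end, as the values show, and this scaling was kept. Of 10209 probe sets, 108 housekeeping or hybridisation controls and 63 reporter controls were left out. The number of arrays limits the precision.

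Values under 50 were set to 50 and log2 was taken. A probe set was tested if above 50 on at least 4 fruit, 3 leaf or 3 root tip arrays, or 3 of all arrays for the tissue contrasts. Tests used limma 3.58.1 in R 4.3.3, with a mean per genotype in each tissue (or per group over 40 arrays), a variance trend and no covariate. All p-values are two-sided, adjusted by Benjamini-Hochberg over every probe set in the fit, and called under 0.05. Lines minus controls is the mean of N6 and N7 minus the mean of WT and VC, so variation between independent transformants is not in the p. The method was tested on simulated data. Comparisons within a tissue share control arrays.

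Groups and replicate numbers came from the sample titles. Same-numbered arrays deviated together (r over 0.1) in 10 of 24 pairs in fruit, 5 of 18 in leaf and 10 of 18 in root tips. The numbers were not used to pair samples. In root tips, however, every WT and VC pair (0.29 to 0.48) and every N6 and N7 pair (0.30 to 0.41) deviated together. Pairs of a control and a line there ranged from −0.63 to 0.33. All root tip tests leave this likeness out, those of lines minus controls, VC minus WT and N7 minus N6 included. Their SE and intervals treat same-numbered arrays as independent, so those of lines minus controls in root tips may be too narrow. Symbols came from the platform's annotation, which gives 1 symbol to 909 probe sets. The gene table of SLM_r2.1 was used for names and neighbours only. APX1 matched it by gene identifier and GPXle-2 by symbol. For the peroxide list, the brightest probe set stood for each gene. Beside the members, the text names, per tissue, the list genes with the 2 highest and the 2 lowest differences, the called ones, and per member the 5 genes with the highest Pearson r in each measure of likeness, among probe sets above 50 on at least 10 arrays. The family members and further values of these genes were added after their values were seen. The members and the lists were chosen with earlier results of these data known. Alternatives were other floors, no filter, median and quantile scaling, array weights, a replicate block, the 3′/5′ ratio as a covariate, single controls, and leaving out arrays.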

Additional observations from a re-analysis of the deposited data

Results flagged for a closer look

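The lines minus controls difference of GPXle-2 lay on opposite sides of 0 in fruit and leaf. Fruit minus leaf, it came to 2.05 on the log2 scale, with 8 of 8 fruit line arrays above and 6 of 6 leaf line arrays below the control mean of their tissue. Leaf minus root tip, it came to −1.78, with 6 of 6 root tip line arrays above the control mean. The root tip difference itself did not pass the test (0.25 ± 0.13, limma adjusted p = 0.423). These differences between tissues were not tested, since the members were chosen for the fruit and leaf values. Opposite signs in fruit and leaf, called in both by limma, were also those of VPE5 (0.55 and −1.52), app1 (0.78 and −0.66) and ST3 (0.30 and −1.20). The same held for LOC543937 (0.48 and −0.61) and Sip1 (0.47 and −0.58), but not for FKBP12 (−0.03 and −0.38). LOC544263 (0.09 and −0.59) was not called in fruit. These genes were picked for their likeness to GPXle-2 on the same arrays. Their signs and calls therefore follow largely from that pick and add no support. For comparison, limma called 31.1% of the probe sets tested in fruit and 18.4% of those tested in leaf. The share of all probe sets with opposite signs was not counted.

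The dim probe set of GPXle-2 had an array apart from the others of its group in fruit. The gap divided by the range, after the floor, was 1 in WT and 0.916 in N7. In WT the apart array is the 1 of 4 that exceeded the floor. The other WT arrays were set to 50, so the floor fixed that ratio. In N7 only 2 of 4 arrays exceeded the floor. Of the 12 sets of 4 fruit arrays, 1 for each of 3 probe sets in each of 4 genotypes, 2 were marked in this way. The dim probe set in VC could not be marked, since all its arrays were under the floor. Chance marks about 1 in 20 only where no floor is set, so that rate does not apply to the 2 marked sets.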

How the results depend on the processing

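Over the alternatives run, the lines minus controls difference of GPXle-2 kept its sign in fruit (0.47 to 0.76), leaf (−1.74 to −1.39) and root tips (0.15 to 0.36), and that of APX1 in fruit (−0.78 to −0.28) and leaf (−0.74 to −0.31). The cause was not tested where results below changed. With a floor of 100, APX1 was −0.31 in leaf, 0.02 for fruit N7 minus N6, −0.01 for leaf N7 minus N6 and 0 for control fruit minus leaf, since that floor lies above many of its signals. With median scaling, GPXle-2 gave −0.07 for fruit N7 minus N6, 0.08 for fruit VC minus WT and −0.15 for control fruit minus root tip. APX1 gave 0.08 for root tip lines minus controls, 0.01 for root tip N6 minus VC, 0.2 for control fruit minus leaf and 0.78 for control fruit minus root tip. With quantile normalisation, APX1 gave 0.06 for root tip lines minus controls, 0.16 for control fruit minus leaf and 0.74 for control fruit minus root tip, and GPXle-2 −0.41 for control fruit minus leaf. With array weights, GPXle-2 gave −0.1 for fruit N7 minus N6, −0.37 for control fruit minus leaf and −0.24 for leaf minus root tip, and APX1 −0.19 for fruit VC minus WT and 0.42 for control leaf minus root tip. With the 3′/5′ covariate, GPXle-2 fruit N7 minus N6 was 0. With WT alone, APX1 gave 0.28 for root tip lines minus controls and 0.9 for control leaf minus root tip, and GPXle-2 −0.4 for control fruit minus root tip. With VC alone, APX1 control fruit minus leaf was 0.21. Without fruit WT 3 and VC 4, GPXle-2 control fruit minus leaf was −0.42 (limma adjusted p = 0.0173). With a replicate block it was −0.39 (limma adjusted p = 0.0309), and the block moved the count of called probe sets for leaf N7 minus N6 from 293 to 195 and changed no other call of the members.

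Leaving out 1 array at a time, GPXle-2 ranged from −0.26 to 0.02 for fruit VC minus WT, −0.05 to 0.11 for fruit N7 minus N6, −0.88 to −0.18 for leaf N7 minus N6, −0.13 to 0.24 for root tip VC minus WT, −0.07 to 0.24 for root tip N7 minus VC and −0.41 to −0.27 for control fruit minus leaf. The last was called without fruit WT 4, fruit VC 4 or root tip WT 3. APX1 ranged from −0.21 to 0.21 for root tip lines minus controls, −0.46 to 0.37 for root tip N6 minus VC, −0.11 to 0.08 for control fruit minus leaf, 0.27 to 0.68 for control fruit minus root tip and 0.28 to 0.7 for control leaf minus root tip.

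The counts over all probe sets moved most with array weights, to 4081 in fruit, 2692 in leaf and 1831 in root tips for lines minus controls, against 1928, 1200 and 33. With those weights the fruit VC minus WT count went from 0 to 1316, leaf VC minus WT from 1 to 234, and the root tip counts from 0 to 113 for N6 minus VC, 10 to 353 for N7 minus VC and 3 to 434 for N7 minus N6. For fruit N7 minus N6 (180) the count was 96 to 1912 over the settings and 83 to 286 with 1 array left out, and for leaf N7 minus N6 (293) 60 to 380 and 69 to 709. The lines minus controls counts were 3294 in fruit without WT 3 and VC 4, 660 and 788 in leaf with VC or WT alone, and 4 to 1831 in root tips over all alternatives. In the peroxide list, whose alternatives were chosen after seeing the data, genes that fell numbered 0 to 8 in fruit, 0 to 8 in leaf and 0 to 4 in root tips, and those that rose 0 to 3, 0 to 1 and 0 to 1. Median scaling moved the share of calls that were higher from 53.4% to 66% in fruit, from 53.2% to 39.4% in leaf and from 45.2% to 58.4% for control fruit minus root tip. It moved the median difference over everything tested from −0.01 to 0.09 in that contrast, and from 0.05 to 0.16 for fruit minus leaf. Signals of APX1 near the floor limit what can be read from its folds.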
